A study of Homo sapiens with 16 samples.

Results

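The 8 long noncoding RNAs described here are MIR34AHG, PURPL, LINC-PINT, GAS5, NEAT1, MALAT1, MEG3 and H19. They were chosen by name, for a link to p53 or for their abundance in cells, with earlier results of these data known. All 8 were found among the 60649 genes of the deposited count table, and all 8 were among the 19103 genes, 3404 of them long noncoding, that held enough counts to be tested. The cells were ASC52telo, mesenchymal stem cells (MSCs) from adipose tissue immortalized with telomerase reverse transcriptase, and 16 poly(A)-enriched libraries were made from them. Each of the 4 groups had 4 libraries, described as biological replicates. MmC-/GDF11- (young MSCs) received neither agent, and MmC-/GDF11+ received growth differentiation factor 11 (GDF11), a cytokine of the TGF-beta family, at 10 ng/mL. MmC+/GDF11- (senescent MSCs) received mitomycin C (MmC), a DNA alkylating agent, at 1.5 µg/mL for 18 h, and MmC+/GDF11+ received MmC at that dose and then GDF11 at 10 ng/mL. GDF11 was given during the 10 days that followed MmC, and the libraries were made after them. All 4 groups are 1 cell line studied in vitro, all carry the telomerase transgene, and all 16 libraries have the same sequencing run in the labels, so p-values measure the spread between samples of this line. The study lists batch effects among its limits, and the labels do not say which libraries these would touch.

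A long noncoding RNA is transcribed like a messenger RNA but is not translated into a protein of known function. The transcription factor p53, which DNA damage stabilizes, activates genes that stop the cell cycle, and among its targets are noncoding genes: MIR34AHG is the precursor of the microRNA miR-34a, PURPL is known to keep p53 levels low in unstressed cells, LINC-PINT is a p53-induced RNA that has been linked to polycomb repression, and NEAT1 is the scaffold of the nuclear bodies called paraspeckles. GAS5 carries small nucleolar RNAs in its introns and is known to accumulate when growth stops. MALAT1 is an abundant RNA of nuclear speckles, and MEG3 and H19 are imprinted genes expressed from the maternal chromosome.

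Sequences that bear on p53-linked members are shown first. MIR34AHG spans chr1:9148011-9198906, minus strand, in hg38. The hairpin of miR-34a lies in an exon of it, and both mature arms are printed with the seed, bases 2 to 8, in capitals, because the seed is what pairs with target messenger RNAs. LINC-PINT spans chr7:130791264-131110176, minus strand, and the microRNA genes MIR29A and MIR29B1 lie inside it on the same strand. Their main arms are shown because they have the same seed as each other and a different one from miR-34a. The sequences are those of RefSeq on GRCh38.p14.
hsa-miR-34a-5p (chr1:9151735-9151756, minus strand): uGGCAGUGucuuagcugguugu
hsa-miR-34a-3p (chr1:9151693-9151714, minus strand): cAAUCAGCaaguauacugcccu
hsa-miR-29a-3p (chr7:130876748-130876769, minus strand): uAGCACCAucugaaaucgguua
hsa-miR-29b-3p (chr7:130877467-130877489, minus strand): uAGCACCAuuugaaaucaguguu
Poly(A) libraries of this kind do not measure mature microRNAs. In the 16 libraries 0 reads were counted on the gene of miR-34a, and 28 and 0 on those of MIR29A and MIR29B1. These counts cannot show whether the hairpins are transcribed. Exons of the host genes hold 110 bases of MIR34A, 2 of MIR29A and 81 of MIR29B1, and reads on shared bases may be assigned to neither gene.

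The promoters of the members, 250 bases before and 50 bases after each start in RefSeq, were searched on both strands for the consensus of a p53 site, which is made of a pair of elements of 10 bases with 0 to 13 bases between them. Of the 8 members, 7 had an entry, with 13 promoters between them, since LINC-PINT, MEG3 and MALAT1 have several starts. NEAT1 had no entry and was not searched. A pair of elements was found in 1 promoter, that of PURPL, and no single element in the other 12. Across all 35116 promoters of this length, 6.63% held at least 1 element and 10 promoters, 0.0285%, held a pair. PURPL spans chr5:27217714-27497871, plus strand, and this promoter begins at a start inside that span. The elements, in capitals, begin at positions -127 and -117 with 0 bases between them, where the start is position +1.
PURPL promoter (chr5:27472042-27472341, plus strand): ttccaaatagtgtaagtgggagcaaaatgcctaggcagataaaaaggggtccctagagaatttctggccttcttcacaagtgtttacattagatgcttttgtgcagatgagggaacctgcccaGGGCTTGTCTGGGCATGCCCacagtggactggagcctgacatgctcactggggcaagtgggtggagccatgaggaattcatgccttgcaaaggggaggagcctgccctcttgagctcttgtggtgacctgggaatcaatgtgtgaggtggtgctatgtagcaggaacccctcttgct
A match is a description of the letters, and binding was not measured. Only exact matches in these windows were counted, so a member without a match may still have a p53 site. For MIR34AHG the start searched, chr1:9182338, lies inside its span, and its 5-prime end at 9198906 was not searched. The start of messenger RNAs whose translation follows growth, a C and then at least 4 pyrimidines beginning within 10 bases of the start, was searched on the sense strand too. It was present in 5 of the 13 promoters, 38.5%, in a background where 33.5% of all promoters had it. These were 1 of 2 of MALAT1, 1 of 1 of MIR34AHG, 1 of 4 of LINC-PINT and 2 of 3 of MEG3. The 2 of MEG3 are the same stretch seen from 2 neighbouring starts, so the 5 are not separate stretches. The listed start of GAS5, chr1:173869045 on the minus strand, did not have it. That window, chr1:173868996-173869295, lies wholly upstream of the GENCODE v44 span of GAS5, whose 5-prime end is 173868882. That end was not searched for either motif.

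Total counts lay between 71275337 and 144204979 per library. The 8 MSC markers searched were detected in every library, with summed levels of 9389 to 26901 CPM (the gene's share of a library's counts, after TMM scaling), whereas those of blood cells (6 genes) came to 9.63 to 21.8 CPM, mostly from CD34. Of the MSC markers, the collagens COL1A1 (1319 to 11530 CPM) and COL1A2 (2352 to 9310 CPM) had the highest medians and the widest ranges, so they weigh most in that sum. The epithelial list (5 genes), of which KRT14 gave most of the signal and KRT5 and EPCAM were at or near 0, summed to 48.8 to 82.5 CPM in the 8 libraries without MmC and to 12.6 to 21.0 CPM in the 8 with it. Endothelial markers (5 genes) summed to 47.5 to 82.4 CPM without and 54.4 to 111 CPM with MmC, mostly from TEK, while KDR did not exceed 0.221 CPM. Counts on mitochondrial genes made up 1.58 to 3.11% of each library without and 3.55 to 4.73% with MmC. The part of these differences in the results below was not tested. All 12 cell cycle genes examined were lower after MmC, both without and with GDF11 (medians of log2 fold changes -1.96 and -1.90). Replicate 1 stood apart from the other replicates. After MmC its cell cycle genes summed to 125 CPM without and 122 CPM with GDF11 against 277 to 326 CPM in the other 6 libraries. Its MSC markers then summed to 19100 and 19470 CPM against 9389 to 10690 CPM. In MmC-/GDF11- its cell cycle genes summed to 603 CPM against 1036 to 1311 CPM, and its MSC markers to 26901 against 16077 to 16372 CPM. In MmC-/GDF11+ it stood less apart, with 947 against 953 to 1200 CPM and 20895 against 15822 to 19090 CPM. An analysis of replicates 2 to 4 was therefore added after the data were seen, and its values are given for the members whose call it changed, for GAS5 and NEAT1 and for the named genes whose call it changed.

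The first comparison is that of senescent with young MSCs. MmC raised 5 of the 8 members in the absence of GDF11 (MIR34AHG, PURPL, LINC-PINT, GAS5 and NEAT1) and the same 5 in its presence, each between 1.70-fold and 2.56-fold. No member was called lower in either comparison. A gene counts as called where edgeR's quasi-likelihood test, corrected over the 19103 genes tested, gave it an adjusted p under 0.05. By that rule 22.9% of the tested genes were called higher and 22.4% lower by MmC without GDF11, and 23.4% and 23.3% with GDF11. The 4 libraries of one group lay above the 4 of the other, without overlap, for NEAT1, MIR34AHG, LINC-PINT and GAS5 without GDF11, and for these 4, PURPL and MALAT1 with GDF11. Over all genes 19.1% lay wholly higher and 18.2% wholly lower without GDF11, and 20.2% and 21.2% with it. Of the 3404 long noncoding genes tested, 23.3% were higher and 12.8% lower without GDF11, and 24.4% and 11.8% with it. Over replicates 2 to 4 alone, 6 members were called higher in each arm, the same 5 and MALAT1. More genes were called there too: 5059 of 19338 tested were higher without GDF11 and 5098 with it. In the main fit these were 4380 and 4468 of 19103. In bulk RNA a change in the number of cells that express a gene and a change in RNA per cell cannot be told apart.

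**Figure D1:**
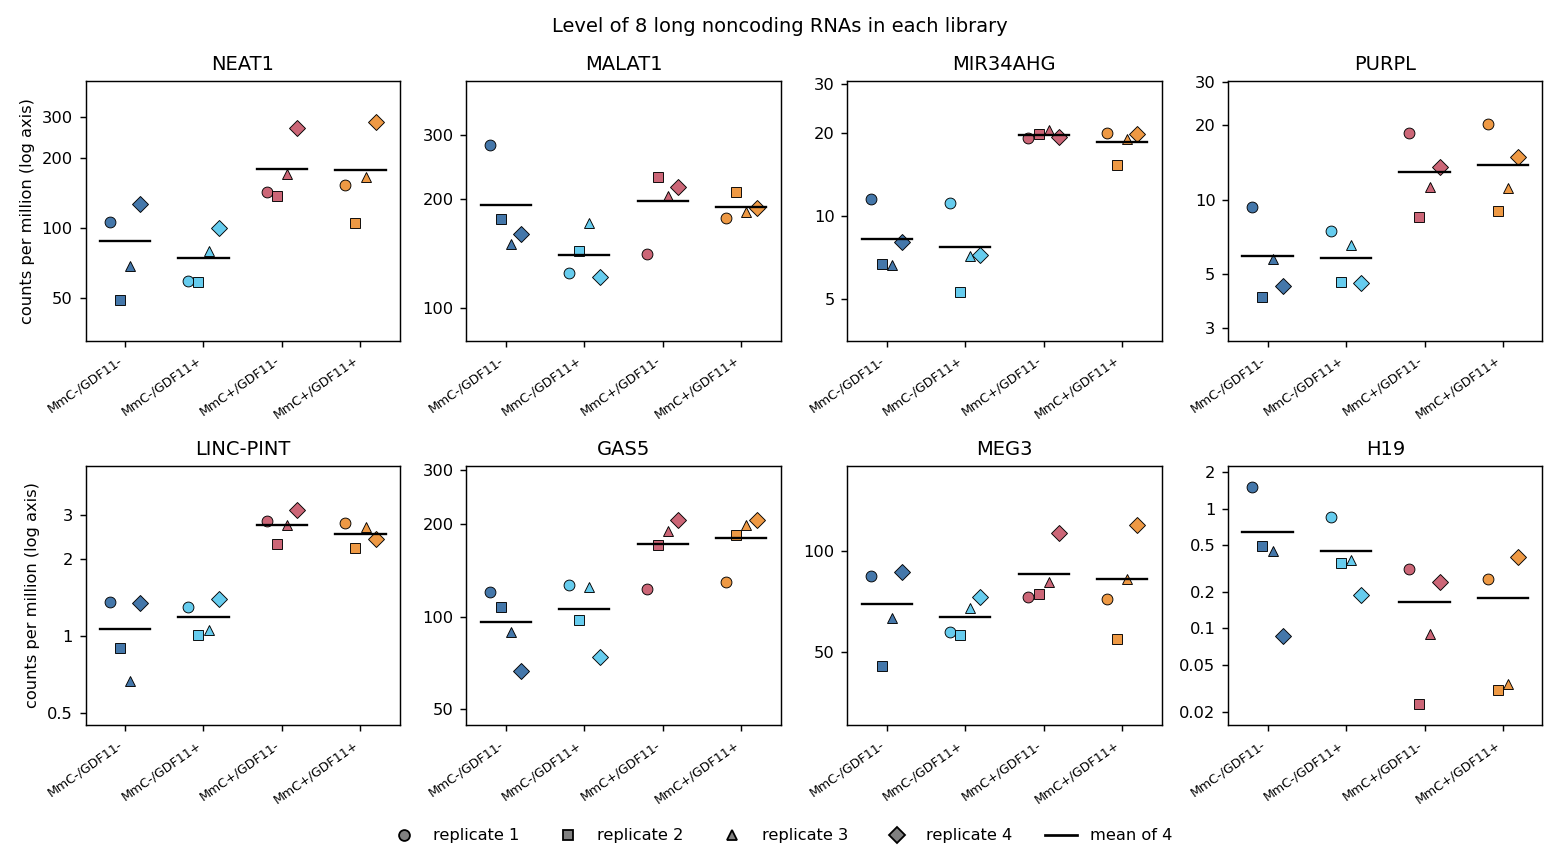
Level of each long noncoding RNA in CPM, on a log axis, in the 16 libraries. Colours mark the 4 groups, symbols the replicate number and black bars the mean of 4 libraries. MIR34AHG lies between 15.2 and 20.5 CPM in the 8 MmC+ libraries and at 11.5 CPM or less in the others, and H19 ranges from 0.0233 to 1.52 CPM.

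MIR34AHG, which produces the miR-34a precursor, rose after MmC in both arms. Replicates 1 to 4 of MmC-/GDF11- held 11.5, 6.70, 6.65 and 8.02 CPM, and those of MmC+/GDF11- held 19, 19.8, 20.5 and 19.3 CPM. With GDF11 the values were 11.2, 5.28, 7.12 and 7.21 CPM without MmC and 19.9, 15.2, 18.9 and 19.7 CPM after it. Every MmC+ library lay above every MmC- library, and replicate 1 was the highest of the MmC- libraries in both arms. The rise was 2.39-fold (95% interval 1.78 to 3.21) without GDF11, a log2 fold change of 1.26 (SE 0.20, adjusted p = 0.000118), and 2.40-fold (95% interval 1.79 to 3.22) with GDF11, a log2 fold change of 1.26 (SE 0.20, adjusted p = 0.000115). The coefficient of variation among 4 libraries was 27.9% in MmC-/GDF11- and 3.21% in MmC+/GDF11-, and with GDF11 it was 32.2% without MmC and 11.9% after it. LNCTAM34A, a long noncoding RNA transcribed from the opposite strand inside the span of MIR34AHG, stood at 1.58 ± 0.837 CPM (SD, n = 4) in MmC-/GDF11- and at 3.08 ± 1.28 CPM in MmC+/GDF11-. It was called higher without GDF11, with 0.97 (adjusted p = 0.0397) on the log2 scale, and had 0.85 (adjusted p = 0.0654) with GDF11. The call without GDF11 was lost in 7 of 27 alternative analyses, and with GDF11 a call was gained in 9 of 27, among them replicates 2 to 4 alone (0.69, adjusted p = 0.00526). The library kit kept strand, but the strand setting of the counting is not given in the sources used here, so reads of the 2 partners may not be separated where they overlap, over 4.95% of MIR34AHG's exonic bases.

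Genes known as direct targets of miR-34a were examined beside MIR34AHG. Without GDF11, 5 of the 16 tested were higher after MmC, 2 were lower and 9 did not pass the test, with a median log2 fold change of 0.13, against -0.01 over all genes, which was also the value with GDF11. With GDF11 the counts were 6, 2 and 8 and the median 0.12. Among all tested genes 22.9% were higher and 22.4% lower without GDF11, and 23.4% and 23.3% with it. CCND1, which encodes cyclin D1, went from 300.4 to 1248 CPM, a log2 fold change of 2.06 (adjusted p = 1.09e-07). AXL, a receptor tyrosine kinase, fell by 1.35 on the log2 scale, from 791 to 309 CPM (adjusted p = 2.99e-07), and NOTCH2, a receptor of cell-to-cell signalling, rose by 0.97 (adjusted p = 7.10e-05). Without 1 library, 3 to 6 were higher and 2 lower without GDF11, with the fewest when replicate 2 of MmC-/GDF11- was left out, and the median lay between 0.11 and 0.24, the latter without replicate 4 of that group. With GDF11 the ranges were 4 to 6 higher and 2 lower, with medians between 0.070, without replicate 4 of MmC+/GDF11+, and 0.21, without replicate 4 of MmC-/GDF11+.

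PURPL rose in both arms but varied more between samples. Its 4 libraries held 9.34, 4.01, 5.71 and 4.44 CPM in MmC-/GDF11- and 18.6, 8.52, 11.3 and 13.5 CPM in MmC+/GDF11-. Within each replicate number the MmC+ library was the higher one, yet replicate 1 of MmC-/GDF11- (9.34 CPM) exceeded replicate 2 of MmC+/GDF11-, so the ranges overlapped. The difference was 2.21-fold (95% interval 1.4 to 3.5), a log2 fold change of 1.15 (SE 0.31, adjusted p = 0.00731). With GDF11 the values were 7.48, 4.64, 6.52 and 4.58 CPM without MmC and 20.2, 8.98, 11.1 and 14.9 CPM after it, with no overlap, a rise of 2.38-fold (95% interval 1.5 to 3.77) and a log2 fold change of 1.25 (SE 0.31, adjusted p = 0.00421). Replicate 1 was the highest library in each of the 4 groups for PURPL.

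LINC-PINT was the member with the largest estimate without GDF11 and among the lowest in level. Its libraries held 1.36, 0.901, 0.668 and 1.35 CPM in MmC-/GDF11- and 2.83, 2.31, 2.72 and 3.12 CPM in MmC+/GDF11-, from 51 to 279 reads each. The groups did not overlap, and the rise was 2.56-fold (95% interval 1.89 to 3.46), a log2 fold change of 1.35 (SE 0.21, adjusted p = 7.61e-05). With GDF11 the levels went from 1.31, 1.01, 1.06 and 1.40 CPM to 2.79, 2.23, 2.68 and 2.40 CPM, again with no overlap and with a log2 fold change of 1.08 (SE 0.20, adjusted p = 0.000494). MKLN1, a protein-coding gene that starts on the opposite strand beside LINC-PINT and shares 81 exonic bases with it, rose by 0.57 (adjusted p = 7.70e-05) and 0.50 (adjusted p = 0.000203) on the log2 scale, at 81.7 ± 3.87 CPM (SD, n = 4) in MmC+/GDF11- against 55.2 ± 6.78 CPM in MmC-/GDF11-. As with LNCTAM34A, reads of MKLN1 and LINC-PINT may not be separated over the shared bases. Of the 7 genes of polycomb repressive complex 2, with which LINC-PINT has been linked, 1 was higher and 1 lower without GDF11 and 0 higher and 2 lower with it. Among all tested genes these shares were 22.9% and 22.4% without GDF11, and 23.4% and 23.3% with it. Over the 27 alternatives the number lower lay between 1 and 4 in both arms, and the number higher between 0 and 1 without and 0 and 2 with GDF11, so these counts depend on the analysis. RBBP7, a histone-binding subunit, had a log2 fold change of -0.45 (adjusted p = 0.00942) and JARID2, a cofactor of the complex, of 0.43 (adjusted p = 0.0279), whereas RBBP4, the close relative of RBBP7, had -0.29 (adjusted p = 0.0647) and EZH2, the methyltransferase, named after its value was seen, -0.73 (adjusted p = 0.0763). JARID2 lost its call when replicate 2 or 3 of MmC-/GDF11- or replicate 4 of MmC+/GDF11- was left out, while EZH2 and RBBP4 gained a call in 5 of 27 alternatives each. Over replicates 2 to 4 they had -0.64 (adjusted p = 7.07e-05) and -0.28 (adjusted p = 0.0114), and without replicate 1 of MmC-/GDF11- the number lower was 4. With GDF11 JARID2 had 0.34 (adjusted p = 0.0720) and EZH2 -0.75 (adjusted p = 0.0683), and they gained a call in 9 and 4 of 27. Over replicates 2 to 4 these were 0.44 (adjusted p = 0.00840) and -0.52 (adjusted p = 0.000391).

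Protein-coding genes known as targets of p53 were examined beside these members. Whether p53 caused any of the changes was not tested. Of 24 tested, 20 were higher, 1 lower and 3 not called after MmC in both arms, with median log2 fold changes of 1.38 and 1.32. Shares over all tested genes were 22.9% higher and 22.4% lower without GDF11, and 23.4% and 23.3% with it. TNFRSF10B, a death receptor, went from 78.8 to 222 CPM, with 1.49 (adjusted p = 2.65e-08). RRM2B, a ribonucleotide reductase subunit used in DNA repair, had 1.68 (adjusted p = 3.66e-07) and PLK3, a stress kinase, 1.42 (adjusted p = 3.68e-07). The 1 lower gene was TP53I3, an oxidoreductase, with -0.76 (adjusted p = 0.00701), and it is named after its value was seen. The estimates of MIR34AHG, PURPL and LINC-PINT, 1.15 to 1.35 without GDF11, lay under that median. Among 4 other p53-linked long noncoding RNAs with enough counts, NORAD, which binds Pumilio proteins, went from 281 to 433 CPM with 0.63 (adjusted p = 0.00169), and PVT1, the neighbour of MYC, had 0.45 (adjusted p = 0.00163). TUG1 and TP53TG1 had 0.11 (adjusted p = 0.557) and 0.14 (adjusted p = 0.705). With GDF11 the 4 values were 0.63 (adjusted p = 0.00152), 0.53 (adjusted p = 0.000493), 0.14 (adjusted p = 0.428) and -0.05 (adjusted p = 0.903).

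**Figure D2:**
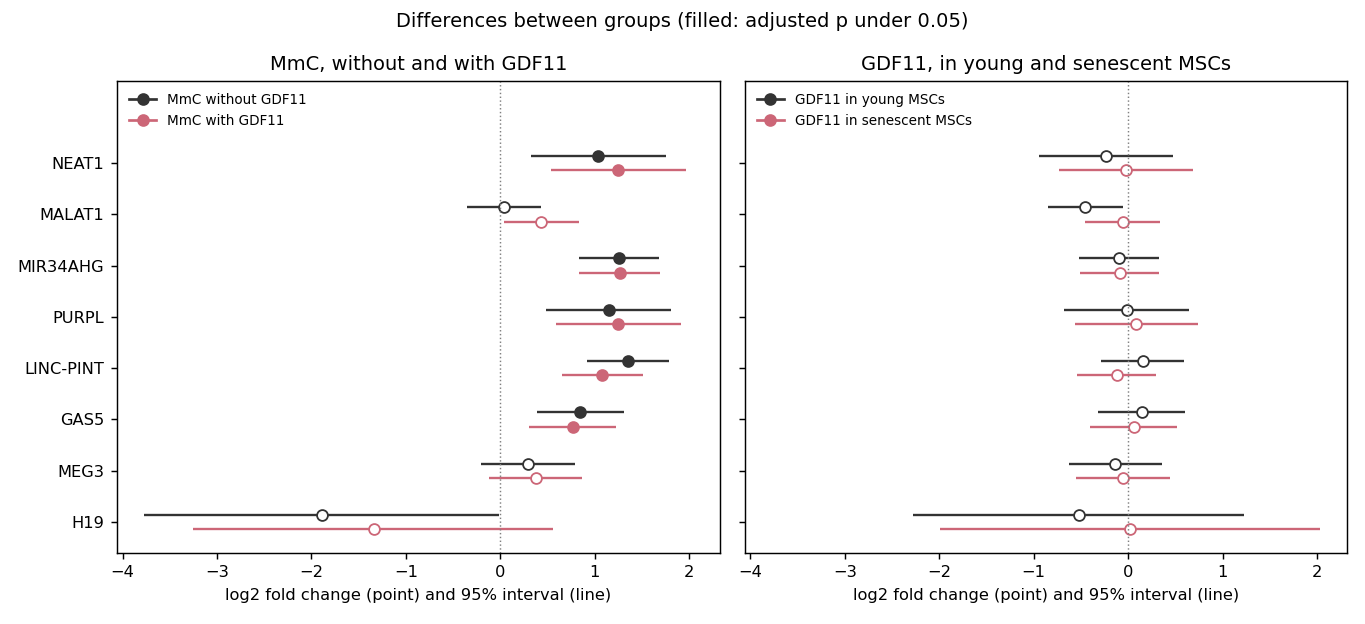
Log2 fold changes of the 8 long noncoding RNAs with 95% intervals, for MmC without and with GDF11 on the left and for GDF11 in young and senescent MSCs on the right. Filled points have an adjusted p under 0.05. The same 5 members are filled in both MmC comparisons and none is filled for GDF11.

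GAS5, at chr1:173858559-173868882, minus strand, rose after MmC, with little change in replicate 1. Replicates 1 to 4 held 120.5, 108, 88.8 and 66.3 CPM in MmC-/GDF11- and 123, 171, 189.8 and 207 CPM in MmC+/GDF11-. With GDF11 they held 127, 97.5, 125 and 73.7 CPM without MmC and 129, 184, 198 and 206 CPM after it. Neither arm overlapped, but the margin was set by replicate 1, which was at almost the same level in all 4 groups: the log2 ratios by replicate number were 0.03, 0.67, 1.10 and 1.64 without GDF11 and 0.03, 0.92, 0.67 and 1.49 with it. The differences were 1.80-fold (95% interval 1.31 to 2.48), a log2 fold change of 0.85 (SE 0.22, adjusted p = 0.00491), and 1.70-fold (95% interval 1.23 to 2.34), a log2 fold change of 0.76 (SE 0.22, adjusted p = 0.00898). Over replicates 2 to 4 alone the log2 fold changes were 1.11 (adjusted p = 0.000177) and 0.99 (adjusted p = 0.000422). GAS5-AS1, antisense to GAS5, stood at 0.277 to 0.481 CPM in the 16 libraries and had -0.06 (adjusted p = 0.850) and 0.05 (adjusted p = 0.868). It shares 132 exonic bases with GAS5, and 7.75% of the exonic bases of GAS5 lie under genes of the opposite strand, where the same limit on strand holds.

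Other host genes of small nucleolar RNAs were called in both directions. Of 14 tested, 4 were higher, 3 lower and 7 not called in each arm, with median log2 fold changes of 0.20 and 0.26. Shares over all tested genes were 22.9% higher and 22.4% lower without GDF11, and 23.4% and 23.3% with it. Without 1 library, 3 to 6 were higher and 2 to 3 lower without GDF11, and 3 to 7 higher and 2 to 3 lower with it, with 7 higher when replicate 1 of either MmC+ group was left out. The median without GDF11 lay between 0.11, without replicate 3 of MmC+/GDF11-, and 0.26. Under the other alternatives up to 7 were higher without and 8 with GDF11. ZFAS1, which like GAS5 carries small nucleolar RNAs in its introns, went from 29.3 to 70.8 CPM, with 1.27 (adjusted p = 0.000957) and 1.18 (adjusted p = 0.00160). EPB41L4A-AS1 had 0.80 (adjusted p = 0.00336), SNHG1 1.43 (adjusted p = 0.0102) and SNHG12 0.90 (adjusted p = 0.0413). DANCR fell, from 19.9 to 9.85 CPM with -1.02 (adjusted p = 4.79e-05), and so did SNHG3, with -0.61 (adjusted p = 0.0109), and SNHG4, with -0.60 (adjusted p = 0.0435). SNHG1, SNHG12, SNHG3 and SNHG4 are named after their values were seen, and without GDF11 the calls of SNHG12 and SNHG4 were lost in 10 and 15 of 27 alternative analyses. Spliced GAS5 is known as a substrate of nonsense-mediated decay. Of the 10 decay factors, 3 were higher and 0 lower in both arms, beside 22.9% and 23.4% of all tested genes higher and 22.4% and 23.3% lower. SMG8, a regulator of the kinase of the pathway, had 0.38 (adjusted p = 0.000499) and UPF3A, a factor bound to exon junctions, 0.17 (adjusted p = 0.0416), and the latter lost its call in 10 of 27 alternative analyses without GDF11, among them replicates 2 to 4 alone (0.18, adjusted p = 0.0589). UPF1, the central helicase of the pathway, named after its value was seen, had 0.13 (adjusted p = 0.268).

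NEAT1, at chr11:65422774-65445540, plus strand, rose after MmC and also varied with the replicate number. Replicates 1 to 4 held 106, 48.9, 68.2 and 127 CPM in MmC-/GDF11- and 143, 137, 170.2 and 268 CPM in MmC+/GDF11-, and with GDF11 they held 58.9, 58.4, 79.7 and 100.0 CPM and 152, 105, 165 and 284 CPM. No MmC+ library fell into the range of the MmC- group it is compared with, and replicate 4 was the highest library of each group. The rises were 2.05-fold (95% interval 1.25 to 3.37), a log2 fold change of 1.04 (SE 0.34, adjusted p = 0.0201), and 2.38-fold (95% interval 1.45 to 3.91), a log2 fold change of 1.25 (SE 0.34, adjusted p = 0.00697). The call without GDF11 was lost when 1 of 3 libraries was left out: replicate 2 of MmC-/GDF11- gave 0.85 (adjusted p = 0.0598), replicate 3 of that group 0.94 (adjusted p = 0.0570) and replicate 4 of MmC+/GDF11- 0.79 (adjusted p = 0.0780). Without a filter on low counts it was 1.03 (adjusted p = 0.0710). Over replicates 2 to 4 it was 1.24 (adjusted p = 0.0444) without and 1.22 (adjusted p = 0.0462) with GDF11. The gene makes a short RNA with a poly(A) tail and a long one without, and gene counts from poly(A) libraries do not separate them.

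The proteins of paraspeckles, which assemble on NEAT1, moved the opposite way at the level of RNA. Of 14 tested genes 13 were lower, 0 higher and 1 not called in both arms, with median log2 fold changes of -0.55 and -0.50, in a background where 22.4% and 23.3% of genes were lower. HNRNPK, needed to form the long NEAT1 isoform, had -0.63 (adjusted p = 3.43e-05) without and -0.62 (adjusted p = 3.81e-05) with GDF11. NONO, a core paraspeckle protein, fell from 332 to 222 CPM, with -0.58 (adjusted p = 5.10e-05) and -0.52 (adjusted p = 0.000137). RBM12, named after its value was seen, was the gene not called, with -0.16 (adjusted p = 0.115), and over replicates 2 to 4 it had -0.23 (adjusted p = 0.0328). Under the 27 alternatives for MmC without GDF11, 11 to 14 genes were lower and 0 higher.

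**Figure D3:**
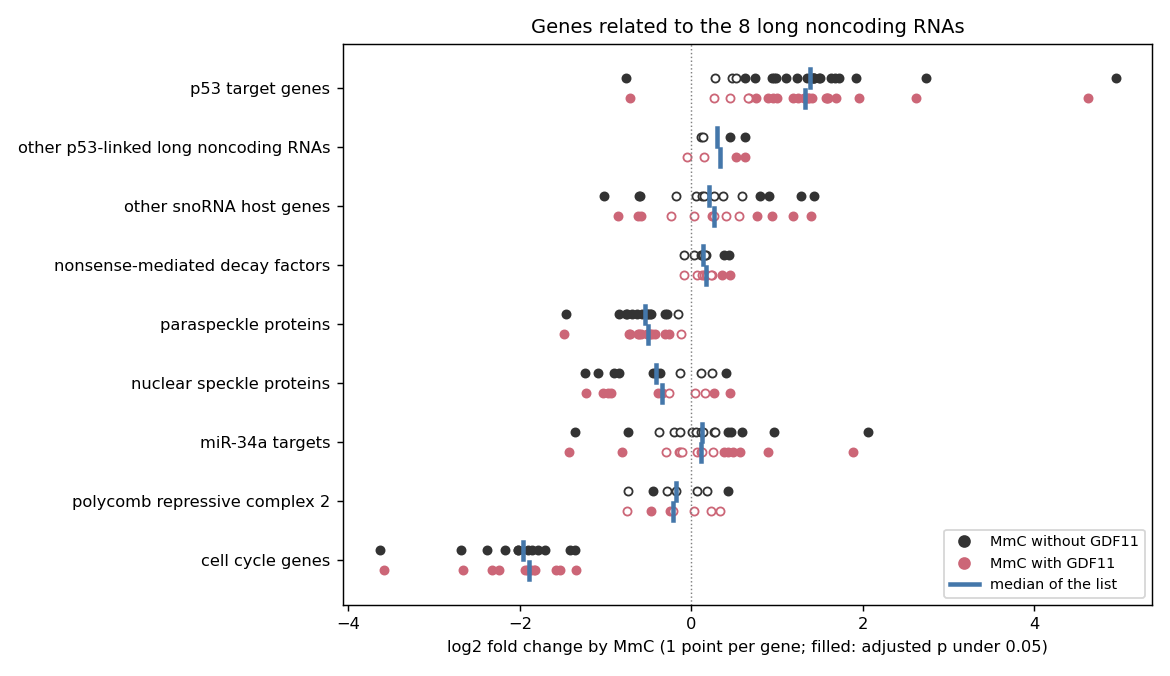
Log2 fold change by MmC of each tested gene in 9 lists related to the long noncoding RNAs, without GDF11 (dark) and with GDF11 (red). Filled points have an adjusted p under 0.05 and blue bars are list medians. The p53 targets lie mostly to the right (median 1.38 without GDF11), and the paraspeckle proteins (median -0.55) and the cell cycle genes (median -1.96) to the left.

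MALAT1, at chr11:65497640-65508073, plus strand, ranked 3 among the tested long noncoding genes by mean CPM and did not pass the test for MmC in either arm. Its libraries held 282, 176, 150.2 and 160.2 CPM in MmC-/GDF11- and 141, 229, 204 and 216 CPM in MmC+/GDF11-, which overlapped, with a log2 fold change of 0.04 (SE 0.19, adjusted p = 0.879). Replicate 1 had the highest level of MmC-/GDF11- and the lowest of MmC+/GDF11-. With GDF11 the libraries held 125, 143, 172 and 122 CPM and, after MmC, 177, 209, 184 and 189.5 CPM. These did not overlap, with a log2 fold change of 0.43 (SE 0.19, adjusted p = 0.0680). Over replicates 2 to 4 MALAT1 was called higher in both arms, with 0.42 (adjusted p = 0.00856) and 0.42 (adjusted p = 0.00839). Mature MALAT1 lacks a poly(A) tail, and the levels here are those of poly(A) libraries. RNAs without a tail (9 genes, 5 of them at 0 in all libraries) summed to 9.37 to 56.1 CPM.

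Genes of the nuclear speckles, in which MALAT1 resides, mostly fell. Of 12 tested, 1 was higher, 8 lower and 3 not called without GDF11, and 2, 7 and 3 with it, with median log2 fold changes of -0.41 and -0.34. Among all tested genes 22.9% were higher and 22.4% lower without GDF11, and 23.4% and 23.3% with it. SRSF1, a splicing factor, had -1.08 (adjusted p = 6.29e-07), SRSF2 -1.24 (adjusted p = 6.07e-06) and SRSF3 -0.90 (adjusted p = 0.000104). SRRM2, a scaffold protein of speckles, was the 1 gene higher in both arms, with 0.41 (adjusted p = 0.00129) and 0.45 (adjusted p = 0.000629), and SON, another scaffold, had 0.24 (adjusted p = 0.0553) and 0.26 (adjusted p = 0.0359). Both are named after their values were seen. For SON the difference between the arms is not shown by these calls: a call was gained without GDF11 in 12 of 27 alternative analyses and lost with it in 6 of 27, among them replicates 2 to 4 alone (0.24, adjusted p = 0.0914).

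The imprinted members did not pass the test in either arm. MEG3, at chr14:100779410-100861031, plus strand, held 84.1, 45.3, 63.1 and 86.2 CPM in MmC-/GDF11- and 72.9, 74.2, 80.9 and 113 CPM in MmC+/GDF11-. With GDF11 it held 57.2, 56.2, 67.5 and 72.7 CPM and, after MmC, 72.1, 54.5, 82.5 and 119.5 CPM. The ranges overlapped in both arms, with a log2 fold change of 0.29 (SE 0.23, adjusted p = 0.324) and a log2 fold change of 0.37 (SE 0.23, adjusted p = 0.202). Their 95% intervals were -0.20 to 0.79 and -0.12 to 0.87. Without 1 library the estimates lay between 0.14 and 0.42 without GDF11 and between 0.15 and 0.54 with it. The lowest came without replicate 4 of MmC+/GDF11- and without replicate 4 of MmC+/GDF11+, the library with the highest level in each of those groups, and without replicate 2 of MmC-/GDF11- it was also 0.14. Of its imprinted neighbours with enough counts, MEG8, transcribed downstream of MEG3 from the same chromosome copy, was lower, at 4.62 and 2.60 CPM and -0.83 (adjusted p = 0.000243) without GDF11 and -0.90 (adjusted p = 0.000127) with it. MEG9 had -0.08 (adjusted p = 0.787) and -0.14 (adjusted p = 0.639). DLK1, the paternally expressed gene of the region, did not exceed 0.0610 CPM in any library.

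H19, at chr11:1995166-2004552, minus strand, was the lowest member by CPM, with 2 to 117 reads per library. Replicates 1 to 4 had 117, 47, 34 and 9 reads (1.52, 0.487, 0.446 and 0.0868 CPM) in MmC-/GDF11- and 31, 2, 8 and 21 reads (0.314, 0.0233, 0.0893 and 0.242 CPM) in MmC+/GDF11-. With GDF11 there were 61, 26, 29 and 17 reads (0.848, 0.349, 0.371 and 0.190 CPM) and, after MmC, 19, 3, 5 and 37 reads (0.260, 0.0305, 0.0341 and 0.395 CPM). In replicates 1 to 3 the MmC+ library was lower in both arms, and in replicate 4 it was higher in both: the log2 ratios by replicate number were -2.28, -4.38, -2.32 and 1.48 without and -1.71, -3.51, -3.44 and 1.06 with GDF11. The fit gave a log2 fold change of -1.88 (SE 0.88, adjusted p = 0.0921) and a log2 fold change of -1.34 (SE 0.89, adjusted p = 0.233). Without replicate 4 of MmC-/GDF11- the first was called lower, at -2.25 (adjusted p = 0.0425). Without replicate 1 of that group it was -0.97 (adjusted p = 0.387), in a range of -2.39 to -0.97 without 1 library. With GDF11 the range was -2.16 to -0.80, the value nearest 0 coming without replicate 1 of MmC-/GDF11+ and the farthest without replicate 4 of MmC+/GDF11+. Its imprinted partner IGF2, a growth factor, had 2 reads in all 16 libraries, and 7 of the 9 listed genes around H19 held too few counts to be tested. MRPL23, a mitochondrial ribosomal protein gene next to H19, was lower with -0.74 (adjusted p = 0.00121) and -0.75 (adjusted p = 0.00104), and KCNQ1OT1, a long noncoding RNA of the neighbouring imprinted domain, had -0.31 (adjusted p = 0.342) and -0.08 (adjusted p = 0.821).

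The second comparison is that of GDF11-treated with untreated MSCs. None of the 8 members passed the test in young or in senescent MSCs, and in neither did the 4 and 4 libraries of a member separate. Across all genes edgeR called 0 in either state, 0% of those tested, while 226 genes in young MSCs and 96 in senescent MSCs had an unadjusted p under 0.05. DESeq2 called 1 and 0 genes and limma-voom 0 and 0. The libraries lay apart without overlap for 0.89% of genes in young and 0.503% in senescent MSCs. MALAT1 in young MSCs had the lowest unadjusted p of the members. Its log2 fold change was -0.45 (SE 0.19, interval -0.85 to -0.05, edgeR adjusted p = 1.00), and over replicates 2 to 4 it was -0.16 (adjusted p = 1.00). In senescent MSCs it was -0.06 (interval -0.45 to 0.34). For the 5 members that MmC raised, the estimates lay between -0.24 and 0.15 in young and between -0.12 and 0.09 in senescent MSCs.

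The width of the intervals sets what the fit without a replicate block could have seen. In senescent MSCs same-numbered libraries deviated together (lowest correlation 0.448), and this fit counts that shared spread as noise. Its intervals there may be wider than those of a blocked fit, which are not given. For MIR34AHG the effect of GDF11 lay in -0.52 to 0.33 in young and -0.51 to 0.33 in senescent MSCs, for LINC-PINT in -0.28 to 0.59 and -0.54 to 0.30, and for GAS5 in -0.32 to 0.60 and -0.40 to 0.51, on the log2 scale. NEAT1 and PURPL were less precise, with -0.94 to 0.47 and -0.73 to 0.68 for NEAT1 and -0.68 to 0.64 and -0.56 to 0.74 for PURPL. MEG3 had -0.14 (interval -0.63 to 0.36) and -0.05 (interval -0.55 to 0.44). For H19 the intervals, -2.28 to 1.23 and -1.99 to 2.03, span changes of over 2-fold in both directions. Whether the MmC effect differed with GDF11 was tested as an interaction: 0 of the 8 members and 0 of 19103 genes (0%) passed in edgeR, with 172 genes at an unadjusted p under 0.05, and DESeq2 and limma-voom called 0. The interaction estimates of the 5 raised members lay between -0.27 for LINC-PINT (interval -0.88 to 0.33) and 0.21 for NEAT1 (interval -0.79 to 1.21), and that of MALAT1 was 0.39 (interval -0.17 to 0.95).

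Levels were compared between genes per kb of exon, with lengths from GENCODE v44. Reads had been counted on GENCODE V38, so these lengths may differ from those counted. In MmC-/GDF11- GAS5 stood at 19.4 ± 4.78 CPM per kb (SD, n = 4) and MALAT1 at 18.4 ± 5.85, and their ranges overlapped. NEAT1 (3.84 ± 1.55) and MEG3 (3.00 ± 0.831) came next and also overlapped, then MIR34AHG at 0.945 ± 0.263 and PURPL at 0.249 ± 0.102 CPM per kb, which did not. H19 (0.183 ± 0.178) spread over PURPL and LINC-PINT, and LINC-PINT was lowest at 0.0392 ± 0.0126 CPM per kb. In MmC+/GDF11- GAS5, at 35 ± 7.34 CPM per kb, lay wholly above MALAT1, at 18.9 ± 3.74, and NEAT1, at 7.88 ± 2.67, wholly above MEG3, at 3.67 ± 0.815. MIR34AHG followed with 2.26 ± 0.0726, PURPL with 0.549 ± 0.181, LINC-PINT with 0.101 ± 0.0123 and H19 with 0.0483 ± 0.0387 CPM per kb, the last pair overlapping. The order was the same with GDF11 as without it in both states, but in MmC+/GDF11+ NEAT1 (4.61 to 12.5) and MEG3 (2.35 to 5.15) overlapped. With the median length of annotated transcripts in place of all exons, 106 of 112 pairs of members in a group kept their order. By that measure MEG3 stood above NEAT1 in both MmC- groups, and in MmC+/GDF11- NEAT1 (41.6 to 81.2) and MEG3 (45.0 to 69.8) overlapped. PURPL then stood above MIR34AHG in both GDF11+ groups, and H19 was lowest in all 4 groups. By mean CPM over the 16 libraries the members ranked 3 (MALAT1), 6 (GAS5), 7 (NEAT1), 10 (MEG3), 76 (MIR34AHG), 123 (PURPL), 581 (LINC-PINT) and 1669 (H19) among the 3404 long noncoding genes.

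**Figure D4:**
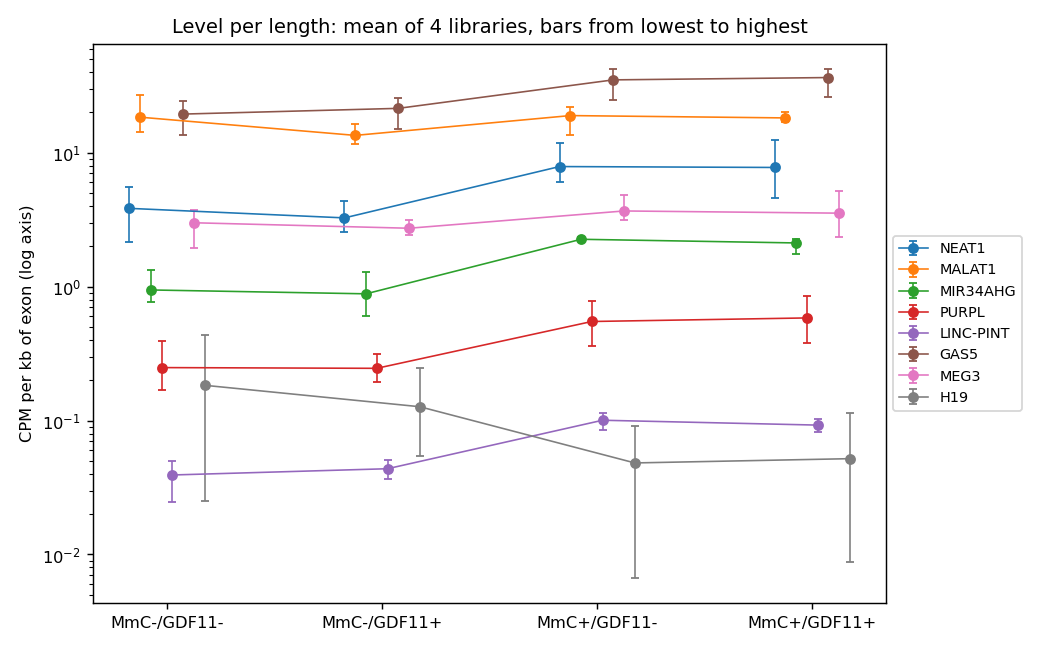
Level of each long noncoding RNA per kb of exon, on a log axis, as the mean of 4 libraries per group with bars from the lowest to the highest library. GAS5 and MALAT1 are the highest at 13.5 to 36.4 CPM per kb, and LINC-PINT and H19 exchange the lowest places between MmC- and MmC+ groups. That exchange depends on the length used: per median transcript length H19 is lowest in all 4 groups.

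The members also varied with each other between samples of the same group. Deviations of log2 CPM from the group mean over the 16 libraries correlated most between NEAT1 and MEG3, at r = 0.980, and MEG3 was the gene most like NEAT1, and NEAT1 most like MEG3, among the 11881 other genes compared, although MmC passed the test for NEAT1 and not for MEG3. Replicate 4 was above the group mean for both genes in all 4 groups, and replicate 2 was below it for both in all 4. PURPL and H19 followed with r = 0.837, at opposite directions of the MmC estimates. GAS5 and MALAT1 had 0.651, MIR34AHG and LINC-PINT 0.627, and GAS5 and NEAT1 -0.031. These are descriptions over 16 libraries of 1 cell line, in which both genes of a pair share each library's depth and RNA.

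**Figure D5:**
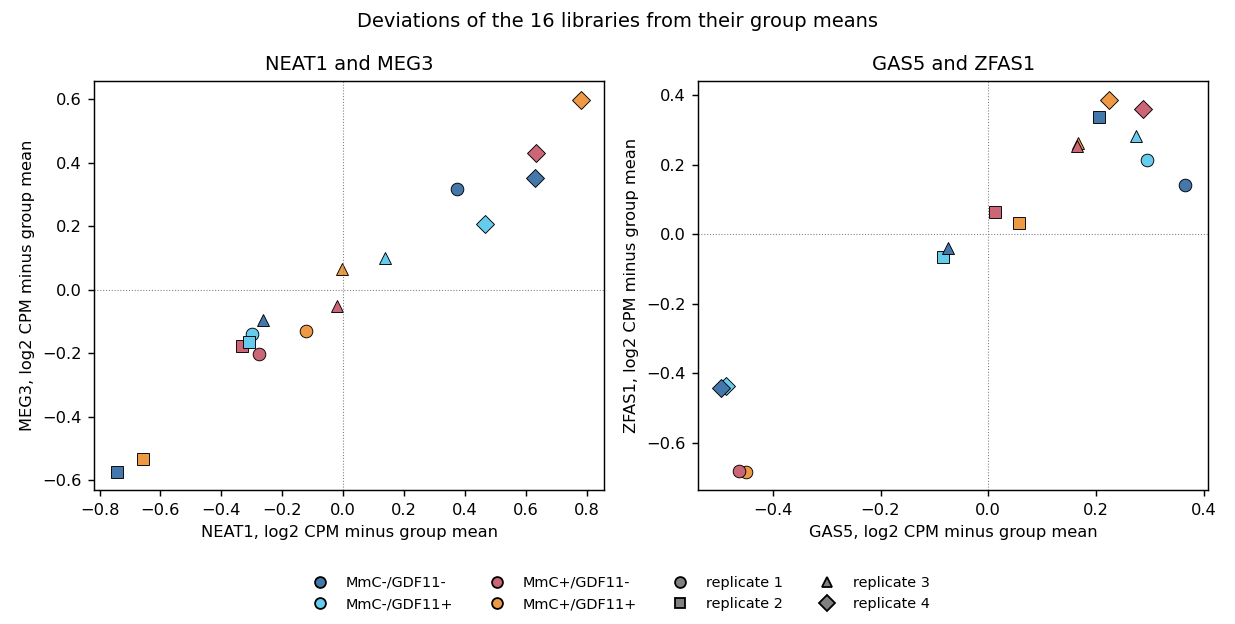
Log2 CPM minus the group mean in the 16 libraries, MEG3 against NEAT1 on the left and ZFAS1 against GAS5 on the right. Colours mark groups and symbols the replicate number. Points lie along the diagonal (r = 0.980 for NEAT1 and MEG3, r = 0.944 for GAS5 and ZFAS1), with replicate 4 at the upper right and replicate 2 at the lower left for NEAT1.

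The genes most like each member by Pearson correlation over all 16 libraries, group differences included, were TOB1 (r = 0.978) and NRP2 (r = 0.976) for MIR34AHG and LACC1 (r = 0.979) and DPP4 (r = 0.976) for PURPL. For LINC-PINT they were GOLGA4-AS1 (r = 0.950) and EPAS1 (r = 0.949), for GAS5 ZFAS1 (r = 0.977) and SLU7 (r = 0.969) and for NEAT1 PLEKHM1P1 (r = 0.963) and MARCHF6 (r = 0.960). MALAT1 was closest to ENSG00000268205 (r = 0.869) and TMEM198B (r = 0.823), MEG3 to AHSA2P (r = 0.956) and PABPC1L (r = 0.932) and H19 to EFEMP1 (r = 0.939) and LINC02511 (r = 0.912). By deviations from the group means they were KLF5 (r = 0.895) and PI16 (r = 0.894) for MIR34AHG, ECM2 (r = 0.980) and PRKG1 (r = 0.960) for PURPL and MFSD14CP (r = 0.835) and FOXRED2 (r = 0.820) for LINC-PINT. GAS5 was then closest to ZFAS1 (r = 0.944) and CWF19L2 (r = 0.943), NEAT1 to MEG3 (r = 0.980) and ENSG00000243679 (r = 0.953) and MEG3 to NEAT1 (r = 0.980) and AHSA2P (r = 0.960). MALAT1 was closest to ENSG00000268205 (r = 0.847) and ZBTB20 (r = 0.827) and H19 to ADH1B (r = 0.951) and IRF1-AS1 (r = 0.951). ZFAS1 was first for GAS5 by both measures, and the unnamed long noncoding gene ENSG00000268205 was first for MALAT1 by both.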

How the data were processed

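The authors aligned paired reads of 16 poly(A) libraries, made with a directional kit, to hg38 with HISAT2 2.2.1 and assigned them to GENCODE V38 by featureCounts 2.0.1. The deposited values are raw counts per gene, without normalization. Strand, multimapping and pair settings of the counting, and any test, are not given in the sources used here. Identifiers were matched to symbols, exon lengths and positions in GENCODE v44 (60463 of 60649), since the table has no column of lengths.

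These counts were fitted with edgeR 4.0.16 in R 4.3.3 (filterByExpr by group with minimum count 10 and total 15, TMM scaling, robust quasi-likelihood fit of 1 mean per group to all 16 libraries, Benjamini-Hochberg adjustment over 19103 genes). The steps were tested on simulated data. CPM are TMM-scaled, correlations used log2 CPM with a prior count of 2, and standard errors are the unshrunken log2 fold change divided by the root of F. The most alike genes were sought among genes whose mean log2 CPM reached 1. Correlations of same-numbered libraries were taken over all genes tested. Intervals are 95%. Total counts lay between 71275337 and 144204979 per library, and a member had 2 reads or more in every library.

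Alternatives were RLE and upper-quartile scaling, protein-coding library sizes, other filters, only the 8 libraries compared, the replicate number as a block, limma-voom (limma 3.58.1), DESeq2 1.42.0 and leaving out each library. Same-numbered libraries deviated together from their group means, across genes, in every pair for MmC without GDF11 (lowest correlation 0.113) and GDF11 in senescent MSCs (0.448). By a fixed cutoff they were taken as paired there, but the main estimates and p-values come from the fit without a block. In these comparisons the block changed no member's call. The lowest correlations of the others, 0.0293 and 0.0982, fell under that cutoff. Named genes are the 8 members, the 3 genes with the lowest adjusted p for MmC without GDF11 in each list (all in short lists), overlapping genes and the 2 most alike genes per member. Some genes under this rule are not reported here. The members and lists were chosen with earlier results of these data known.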

Additional observations from a re-analysis of the deposited data

Results flagged for a closer look

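No member met the conditions for a closer look. In the 32 groups of 4 libraries (8 members in 4 groups), 0 had a library that stood apart from the others by Dixon's test at its 95% critical value, where chance gives about 1 in 20, and no interaction of MmC and GDF11 passed the test.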

How the results depend on the processing

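The rise of MIR34AHG, PURPL, LINC-PINT and GAS5 with MmC kept its call in both arms under every alternative run, and so did that of NEAT1 with GDF11. NEAT1 without GDF11 lost its call under the 4 settings named beside it. MALAT1 with GDF11 passed the test with at least 10 counts in every library (0.48, adjusted p = 0.0483), with only the 8 libraries compared (0.46, adjusted p = 0.0102) and with DESeq2 (0.46, adjusted p = 0.0466). It also passed without replicate 1 of MmC-/GDF11- (0.45, adjusted p = 0.0164), replicate 3 of MmC-/GDF11+ (0.55, adjusted p = 0.0387) or replicate 1 of MmC+/GDF11- (0.44, adjusted p = 0.0383), in a range of 0.38 to 0.55 without 1 library. The number of genes called for GDF11 in young MSCs was 1 in DESeq2 and 0 to 1 without 1 library. Of the 32 most alike genes, 12 were also found by Spearman correlation. H19, with 2 to 117 reads, is the member that depth limits most.

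With the replicate number as a block, 11066 genes were called for MmC without GDF11 and 11267 with it over 16 libraries, against 8655 and 8926 without the block. Over the 8 compared, 8989 and 9275 were called with the block and 7143 and 8204 without it. Over the 8 with the block, 1 gene was called for GDF11 in young MSCs. For GDF11 in senescent MSCs 0 genes were called with the block over the 8 or the 16 libraries. Over the 8, edgeR's unadjusted p was under 0.05 for 474 genes with the block and 52 without it. For MmC with GDF11 the block over the 8 added the call of MEG3 (0.35, adjusted p = 0.0311, against 0.40, adjusted p = 0.149 without it). MALAT1 was called there with the block (0.47, adjusted p = 0.00545) as it was without, and not with the block over all 16 (0.43, adjusted p = 0.0943). The block turned the sign of PURPL for GDF11 in young MSCs (0.025 and 0.034) and of MIR34AHG in the interaction (-0.0038), both not called.

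Other signs that turned were all of estimates that did not pass the test, and the causes were not tested. Limma-voom gave PURPL 0.046 in young MSCs, and H19 -0.34 in senescent MSCs and -0.28 in the interaction. Replicates 2 to 4 alone gave PURPL 0.15 and MEG3 0.011 for GDF11 in young MSCs. In the interaction they gave NEAT1 -0.016, MIR34AHG -0.018, PURPL -0.079 and MEG3 -0.076. For MmC without GDF11 they gave TP53TG1 -0.0046, MEG9 0.16 and GAS5-AS1 0.091, and with GDF11 GAS5-AS1 -0.032. Leaving out 1 library turned further signs. For MmC without GDF11 the range of MALAT1 was -0.056 to 0.30, and those of other genes were GAS5-AS1 -0.15 to 0.10, MEG9 -0.20 to 0.054, TP53TG1 -0.13 to 0.29, TUG1 -0.013 to 0.18 and ZBTB37 -0.098 to 0.23. With GDF11 they were GAS5-AS1 -0.020 to 0.15, KCNQ1OT1 -0.31 to 0.054, TP53TG1 -0.31 to 0.11 and ZBTB37 -0.060 to 0.17. For GDF11 in young MSCs the ranges were MIR34AHG -0.33 to 0.11, PURPL -0.16 to 0.30, LINC-PINT -0.015 to 0.29 and H19 -1.06 to 0.38, and in senescent MSCs PURPL -0.15 to 0.31, GAS5 -0.071 to 0.19, NEAT1 -0.35 to 0.24, MALAT1 -0.19 to 0.024, MEG3 -0.29 to 0.12 and H19 -0.81 to 0.53. In the interaction they were MIR34AHG -0.20 to 0.24, PURPL -0.21 to 0.33, GAS5 -0.22 to 0.058, NEAT1 -0.11 to 0.48, MEG3 -0.15 to 0.25 and H19 -0.35 to 1.08.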
